A study of Mus musculus with 8 samples.

Results

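The AP-1 and immediate early factors described here are 10 genes, chosen by their symbols from the 39179 genes of the deposited count table: Fos, Fosb, Fosl1 and Fosl2 of the FOS family, Jun, Junb and Jund of the JUN family, and Egr1, Ier2 and Ier3. The libraries hold the polyA RNA of green-labelled epithelial cancer cells from mice of a mixed FVB/B6 background, which had been grown for 72 h with red-labelled pancreatic stellate cells (PSC) in 0.5% dialyzed serum. In 4 libraries sonic hedgehog (SHH), a secreted ligand, had been neutralized in the co-culture with an antibody at 20 µg/mL. The other 4 had received none, and no control antibody is named. The arms rest on the treatment each sample is labelled with, since the protocol text names the antibody for all 8, and the plus and minus in the sample titles follow SHH and not the antibody. All 8 libraries come from cells that carry p48Cre, ROSA_rtTAL+ and p53L+, in which Cre is driven by a pancreatic promoter and rtTA is a tetracycline-controlled activator. The labels do not say whether its inducer was present, whether the cells are 1 clone, or how long the sort took. The cells were trypsinized and sorted by colour before lysis. The comparison asks how the transcripts of cancer cells grown beside stellate cells differ when SHH is blocked.

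AP-1 is a transcription factor made of pairs of bZIP proteins, most often a FOS-family protein joined to a JUN-family protein, and JUN proteins can also pair with each other. Immediate early genes are transcribed within minutes of a growth factor or stress signal without the need for newly made proteins, largely through MAP kinases that act on the serum response factor SRF and its ternary complex partners, and most of their transcripts are short-lived. Sustained ERK signalling is known to maintain FOSL1 in particular, while FOS and EGR1 rise briefly after a stimulus.

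Each library held between 14953255 and 15733280 counts with antibody and between 10009711 and 14602784 counts without, so every antibody library was the deeper. The defining epithelial genes were abundant, with a summed level of 7318 to 7734 CPM (counts scaled to the same total in every library) with antibody and 6780 to 7770 CPM without. Of their 7 tested genes Epcam rose (log2 fold change 0.28, adjusted p = 0.022) and the others were not called, where 8.4% of all tested genes were. Epcam was called in 14 of 19 alternatives, but in only 3 of the 8 fits that left out 1 library. Krt19 was called as higher in 6 of 19. The 15 stellate cell markers summed to 27.58 to 55.84 CPM with antibody and 28.01 to 48.78 CPM without. The most abundant of these markers were Col1a1 with 101 to 287 counts per library and Col1a2 with 74 to 317. Dcn and Lum had 0 counts and Acta2 no more than 2. Of the 7 tested stellate markers Pdgfra fell (-0.84, adjusted p = 0.00271), where 8.4% of all tested genes were called. The other 6 had log2 fold changes above 0 and were not called. The list's median was 0.36, with Col3a1 at 0.66 (adjusted p = 0.156) and Col1a1 at 0.36 (adjusted p = 0.169). Col3a1 was called as higher in 4 of 18 alternatives and Col1a1 in 4 of 19. Leukocyte markers summed to 4.48 to 6.11 CPM with antibody and 4.31 to 6.09 CPM without, with Cd3e at 0 counts. Acinar markers summed to 3.16 to 4.19 CPM with antibody and 3.12 to 6.21 CPM without, with Cpa1 and Ptf1a at 0 counts. Endothelial markers summed to 12.8 to 14.3 CPM with antibody and 11.3 to 12.9 CPM without. The most abundant leukocyte marker was Cd68 with 48 to 86 counts per library. For the acinar list it was Cela1 with 34 to 58, and for the endothelial list Cdh5 with 121 to 209. Replicate 1 without antibody stood apart from the other libraries of its arm, with a chi-square of its counts per degree of freedom of 8.68 to 10.5 against each, where the pairs among replicates 2, 3 and 4 gave 1.75 to 4.37. It also had the highest share of mitochondrial counts, 6.21%, against 3.94% to 4.77% in the other 7 libraries. For Fos, Fosb, Fosl2, Egr1 and Ier3 it was the highest of its arm, and for Fosl1, Junb and Jund the lowest. Without it the 4 genes called below were called again, and Junb with them.

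The promoters of 5 of the genes are shown because their transcripts ranked the antibody libraries in the same order, as described further on. They come from RefSeq (GRCm38.p6, 250 bases before to 50 after the start site), which gave such a window for 7 of the 10 genes. Each is written 5′ to 3′ on the strand of its gene, and capitals mark matches, on either strand, to the AP-1 motif TGANTCA, the longer CRE-like motif TGACNTCA, the short CRE core TGACG or the CArG box that SRF binds. A site that fits both TGACG and TGACNTCA counts under both. A match is a description of letters and not a shown binding site.
Fos, chr12:85473640-85473939, plus strand: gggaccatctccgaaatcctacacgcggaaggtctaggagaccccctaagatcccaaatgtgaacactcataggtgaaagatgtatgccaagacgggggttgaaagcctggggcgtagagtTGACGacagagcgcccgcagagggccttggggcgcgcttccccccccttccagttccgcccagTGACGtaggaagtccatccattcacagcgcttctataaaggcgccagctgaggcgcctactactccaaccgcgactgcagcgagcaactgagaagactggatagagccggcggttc
Fosb, chr7:19309996-19310295, minus strand: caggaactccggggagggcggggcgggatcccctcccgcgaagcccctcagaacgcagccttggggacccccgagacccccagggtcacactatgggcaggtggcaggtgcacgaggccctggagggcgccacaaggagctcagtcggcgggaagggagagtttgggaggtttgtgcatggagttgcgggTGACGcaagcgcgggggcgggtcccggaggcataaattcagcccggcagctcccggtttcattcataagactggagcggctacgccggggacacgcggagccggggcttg
Jun, chr4:95052173-95052472, minus strand: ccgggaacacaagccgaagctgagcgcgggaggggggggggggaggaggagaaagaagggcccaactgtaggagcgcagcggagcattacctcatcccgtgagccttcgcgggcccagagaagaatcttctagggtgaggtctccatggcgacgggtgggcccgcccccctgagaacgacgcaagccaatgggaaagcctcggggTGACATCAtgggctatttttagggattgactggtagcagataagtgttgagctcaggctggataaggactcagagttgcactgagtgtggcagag
Junb, chr8:84978699-84978998, minus strand: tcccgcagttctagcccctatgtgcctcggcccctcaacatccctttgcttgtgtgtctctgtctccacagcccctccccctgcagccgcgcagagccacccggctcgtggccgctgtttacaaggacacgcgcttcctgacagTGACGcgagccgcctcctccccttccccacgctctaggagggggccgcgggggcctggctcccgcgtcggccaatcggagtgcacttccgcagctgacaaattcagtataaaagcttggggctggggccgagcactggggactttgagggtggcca
Ier3, chr17:35821463-35821762, plus strand: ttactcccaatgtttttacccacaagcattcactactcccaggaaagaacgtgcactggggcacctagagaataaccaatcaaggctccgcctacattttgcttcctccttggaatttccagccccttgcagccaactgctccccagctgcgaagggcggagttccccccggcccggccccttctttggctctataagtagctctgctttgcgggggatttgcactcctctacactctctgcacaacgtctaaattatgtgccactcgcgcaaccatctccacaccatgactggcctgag
Fos held 2 copies of TGACG, first base at -129 and -66 from the start site, and Fosb and Junb held 1 each, at -60 and -106. Over all 32851 promoter windows of this length TGACG was found in 20.8%. Jun held TGACNTCA as TGACATCA at -45, a motif present in 8.83% of windows. TGANTCA was found in 7.81% of windows and the CArG box in 1.63%, and in none of the 5 windows shown. Sites more than 250 bases before the start site were not searched, so these genes may hold such motifs there. Ier3 held none of the 4 motifs, and neither did the windows of Fosl2 and Jund, which are not shown because their transcripts had other orders.

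With the antibody 4 of the 10 genes fell and none rose. These were Ier3, Egr1, Fosl1 and Fosl2, at an adjusted p under 0.05 over all genes tested (edgeR's quasi-likelihood test with Benjamini-Hochberg adjustment), and this is what called means below. All 10 genes passed the filter on low counts, and 13626 genes were tested in all. Of these 8.4% were called, 3.87% as lower and 4.53% as higher. The libraries of the arms did not overlap, with antibody the lower, for Ier3, Fosl1 and Fosl2, 3 of the 10, while 6.56% of tested genes showed this. None did so with antibody the higher, which 7.71% of tested genes did. The median log2 fold change of the 10 genes was -0.18, against -0.0044 for all tested genes. In bulk RNA a smaller share of cells with a transcript and less of it per cell cannot be told apart.

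**Figure D1:**
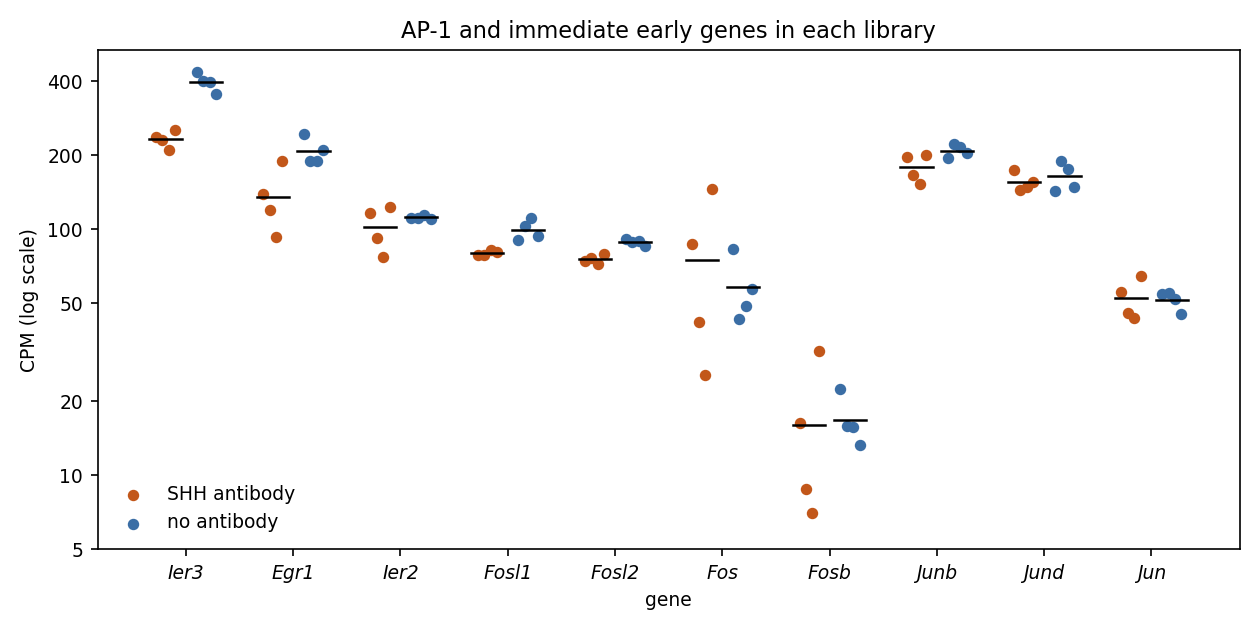
CPM of the 10 genes in each library, on a log axis. Points are libraries, in replicate order from left to right within an arm, and black lines are arm means (n = 4 each). The arms are apart for Ier3, Fosl1 and Fosl2, and the antibody libraries of Fos reach from 25.5 to 146.3 CPM.

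Ier3 showed the largest fall of the 10 genes. It encodes an immediate early protein that affects cell survival and ERK signalling (ENSMUSG00000003541, chromosome 17, 35821684 to 35822923, GRCm38). Its level was 237.8, 229.3, 210.7 and 252.3 CPM in antibody replicates 1 to 4, against 434.1, 398.7, 396.1 and 355.1 CPM in the replicates without antibody. Every antibody library lay below every other library. The means were 232.5 ± 17.4 CPM with antibody and 396.0 ± 32.3 CPM without (SD, n = 4 each), a log2 fold change of -0.77 with a 95% interval of -0.89 to -0.64 (adjusted p = 4.64e-08). By p it ranked 5 among all genes tested. It was called as lower under all 19 alternatives tried (other scalings, filters and tools, a replicate block and left-out libraries).

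Egr1, which encodes a zinc finger transcription factor (ENSMUSG00000038418, chromosome 18, 34859823 to 34864984), fell as well, but with a wide spread. It stood at 138.4, 119.7, 93.3 and 189.5 CPM with antibody and at 243.2, 189.4, 190.0 and 210.4 CPM without. Antibody replicate 4 reached the level of the lowest libraries without antibody, so the arms touch, and the other 3 antibody libraries lay below all of them. It differed by -0.63 ± 0.13 SE on the log2 scale (95% interval -0.89 to -0.36, adjusted p = 0.00302). In each of the 8 fits that left out 1 library the call was kept, with a log2 fold change between -0.83 and -0.48. It was lost with DESeq2 (adjusted p = 0.0807) and in both fits to log RPKM, at 0.0581 with a pseudocount of 1 and 0.0567 with one of 0.1. Nab1 and Nab2 encode the corepressors that bind EGR proteins, and 0 of these 2 was called by edgeR. Nab2 had the lower p, at -0.17 on the log2 scale (adjusted p = 0.153, and an unadjusted p of 0.0245, the 1 of the 2 under 0.05). It was called as lower in 3 of the 19 alternatives, and Nab1 in none.

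Ier2 encodes an immediate early nuclear protein (ENSMUSG00000053560, chromosome 8, 84661331 to 84662852) and was not called. Its level was 115.9, 91.8, 77.0 and 122.6 CPM with antibody and 111.4, 111.5, 114.1 and 109.5 CPM without. The libraries without antibody were nearly level, and those with antibody lay on both sides of them. Its log2 fold change was -0.13, with a 95% interval of -0.33 to 0.06 (adjusted p = 0.453).

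In the FOS family Fosl1 and Fosl2 fell, while Fos and Fosb did not pass the test. Fosl1 encodes FRA-1 (ENSMUSG00000024912, chromosome 19, 5447703 to 5455945), an AP-1 subunit that lacks the transactivation domain of FOS. Its level was 78.5, 78.6, 82.2 and 80.9 CPM with antibody and 90.2, 103.0, 111.3 and 93.7 CPM without. The antibody libraries lay within 1.05-fold of each other and all below the other arm. Fosl1 was thus 1.24-fold lower (log2 fold change -0.31 ± 0.06 SE, adjusted p = 0.00128), called under all 19 alternatives.

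Fosl2 encodes FRA-2, the related subunit (ENSMUSG00000029135, chromosome 5, 32136472 to 32157831). Its level was 74.0, 76.3, 72.0 and 79.3 CPM with antibody and 90.9, 88.6, 89.6 and 85.7 CPM without. The spread was small in both arms and they did not overlap. Fosl2 was 1.18-fold lower (log2 fold change -0.23 ± 0.05 SE, adjusted p = 0.00351), again called under all 19 alternatives.

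Fos itself, the classical serum-induced AP-1 subunit (ENSMUSG00000021250, chromosome 12, 85473890 to 85477273), stood at 87.2, 41.9, 25.5 and 146.3 CPM with antibody and at 83.0, 43.2, 48.5 and 57.1 CPM without. The highest and the lowest of all 8 libraries both belonged to the antibody arm, where the highest was 5.74-fold above the lowest, against 1.92-fold without antibody. The log2 fold change of 0.36 had a 95% interval of -0.29 to 1.01 (adjusted p = 0.558). With replicate 4 of the antibody arm left out it was -0.18 (adjusted p = 0.78), so its sign rests on that library. Of the 19 alternatives, only that with no filtering of low counts called Fos, as higher (0.37, adjusted p = 5.26e-08). Over all of them its adjusted p reached 0.919. The unfiltered edgeR fit also gave far smaller adjusted p for other scattered genes at nearly unchanged fold changes. Egr1 went from 0.00302 to 1.51e-28 and Cyr61 from 7.48e-06 to 1.01e-58, so its p for Fos carries little weight.

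Fosb, whose product resembles FOS (ENSMUSG00000003545, chromosome 7, 19302721 to 19310045), was the least abundant of the 10 genes. It had 16.3, 8.76, 7.04 and 31.9 CPM with antibody and 22.4, 15.9, 15.6 and 13.3 CPM without. Antibody replicate 4 was again the highest and antibody replicate 3 the lowest. Its log2 fold change was -0.08, with a 95% interval of -0.68 to 0.53 (adjusted p = 0.92), and its sign changed in 4 of the 19 alternatives.

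None of the 3 JUN-family genes was called, and Junb came closest. Junb, which encodes a subunit that can restrain JUN in some settings (ENSMUSG00000052837, chromosome 8, 84976909 to 84978748), had 196.4, 165.4, 152.3 and 200.4 CPM with antibody and 194.0, 220.9, 214.8 and 204.0 CPM without. The lower arm was that with antibody, but its replicates 1 and 4 exceeded replicate 1 without antibody. On the log2 scale it differed by -0.22 ± 0.07 SE (adjusted p = 0.0518, an unadjusted p of 0.00441). It was called as lower in 9 of the 19 alternatives, with adjusted p between 0.00142 (no filtering of low counts) and 0.229 over all of them. Among the 9 were the fits without antibody replicate 1 (-0.27, adjusted p = 0.03) or 4 (-0.28, adjusted p = 0.0225). Another was that leaving out no-antibody replicate 1 (-0.26, adjusted p = 0.0091).

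Jund, the subunit that is expressed the most evenly across growth states (ENSMUSG00000071076, chromosome 8, 70697739 to 70700616), had 173.9, 144.6, 147.8 and 155.6 CPM with antibody and 143.4, 189.6, 175.5 and 148.6 CPM without. The arms overlapped over most of their range. Jund had a log2 fold change of -0.08, with a 95% interval of -0.23 to 0.08 (adjusted p = 0.607). Without replicates 1 and 4 of the arm without antibody it was called as lower (-0.23, adjusted p = 0.00181).

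Jun, the founding subunit of AP-1 (ENSMUSG00000052684, chromosome 4, 95049034 to 95052222), had 55.8, 45.7, 43.6 and 64.2 CPM with antibody and 54.4, 55.3, 52.0 and 45.0 CPM without. Both ends of the range belonged to the antibody arm. The log2 fold change was 0.02, with a 95% interval of -0.17 to 0.22 (adjusted p = 0.93). BC042782 overlaps Jun on the other strand with a mean of 11.2 counts, and Gm11175 overlaps Jund with 2.75. The strand setting of the counting is not given in the sources used here, so a small part of these reads is uncertain.

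**Figure D2:**
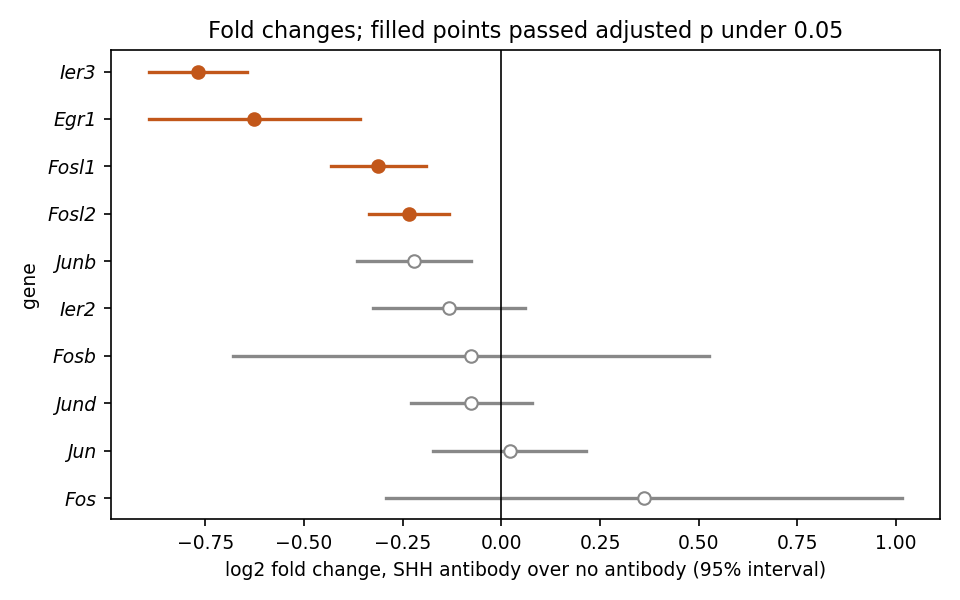
Log2 fold change of each gene, SHH antibody over no antibody, with its 95% interval. Filled points passed adjusted p under 0.05. The intervals of Fos and Fosb are the widest of the 10, while those of Fosl1 and Fosl2 are among the narrowest.

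Per length, on the authors' RPKM scale (counts scaled by gene length and by library total), Ier3 was the most abundant transcript, with a median of 268.2 RPKM over the 8 libraries, and Junb followed at 108.1 RPKM. These were above the next gene in all 8 libraries and did not overlap with it. Ier2 (median 72.6 RPKM), Jund (52.8), Fosl1 (50.2), Egr1 (42.1), Fos (22.5), Jun (16.6) and Fosl2 (14.1) came next, and within this run each gene overlapped its neighbour in the order. Fosb was the lowest at 4.204 RPKM and lay below Fosl2 in all 8 libraries.

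Among FOS-family transcripts Fosl1 held the largest mean share of the summed RPKM in both arms, 51.5% ± 13.1 with antibody and 57.0% ± 6.38 without (SD, n = 4 each). Fos held 37.1%, 22.5%, 14.8% and 47.2% in antibody replicates 1 to 4, and 32.2%, 18.7%, 19.6% and 24.9% in the replicates without antibody. In antibody replicate 4 Fos therefore exceeded Fosl1, which held 36% there, while Fosl1 led in the other 7 libraries. Junb made up 57.9% ± 1.45 of the JUN family with antibody and 60.8% ± 1.57 without, Jund 32.4% ± 2.18 and 30.5% ± 1.70, and Jun 9.75% ± 0.843 and 8.71% ± 0.826. Shares within the JUN family thus varied little between libraries, and those within the FOS family varied more.

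**Figure D3:**
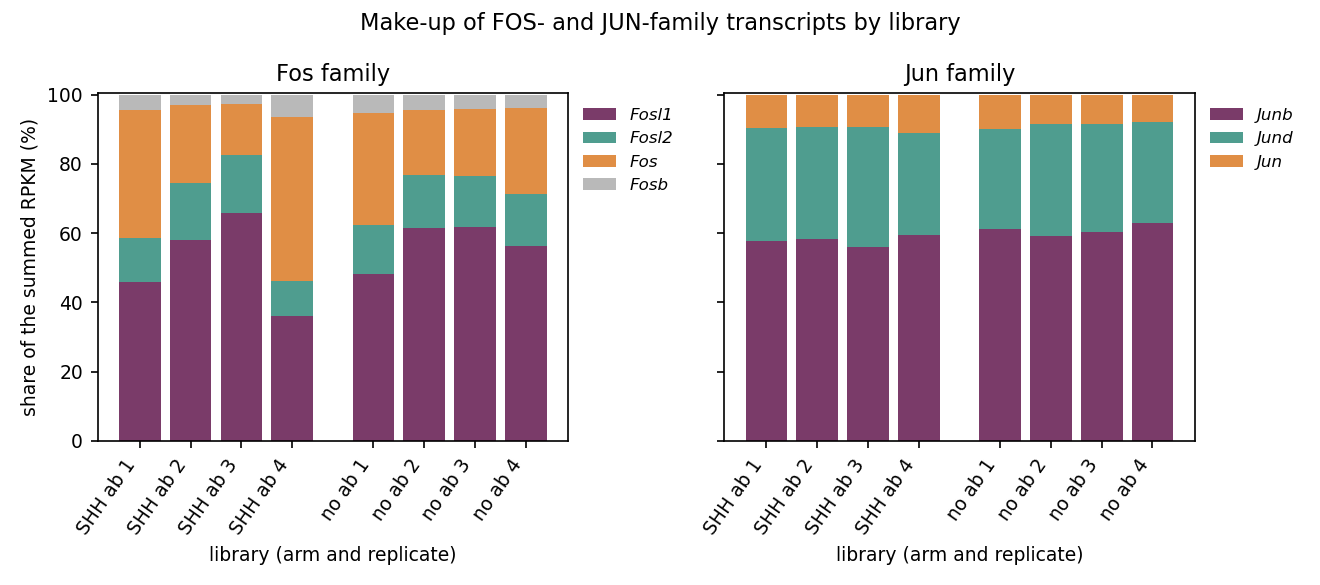
Share of each gene in the summed RPKM of its family, 1 bar per library. Fos takes between 14.8% and 47.2% of the FOS family in antibody libraries and between 18.7% and 32.2% in the others, and Junb the largest part of the JUN family in every library.

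Several of the genes differed between antibody libraries far more than most genes did. The coefficient of variation (SD over mean) of CPM was 71.9% for Fos, 71.0% for Fosb, 30.1% for Egr1 and 20.8% for Ier2 with antibody, and 30.5%, 23.2%, 12.1% and 1.70% for the same genes without. With antibody 4 of the 10 genes exceeded 20%, where 0.463% of 11009 tested genes of at least 5 CPM did, and without antibody 2 of the 10 did, where 2.39% of those genes did. The spread was larger with antibody in 7 of the 10 genes, and in 23.8% of the 11009. Fosl1 went the other way, with 2.27% with antibody and 9.53% without.

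The antibody libraries were ranked alike by most of the genes. Fos was highest in replicate 4, then 1, 2 and 3, and 6 of the 9 other genes, Fosb, Jun, Junb, Egr1, Ier2 and Ier3, had the same order, which 4.04% of the 11009 genes showed. Taking Fos as the pattern was a choice made after its values were seen. In the arm without antibody, of these 9 genes only Egr1 shared the order of Fos, with replicate 1 highest and replicate 2 lowest. After subtraction of the arm means, log2 CPM of Fos and Egr1 had a Pearson r of 0.98 over the 8 libraries (Spearman rho 0.976, and r = 0.931 without the 2 libraries farthest from the median of Fos). For Fos and Fosb r was 0.952 (rho 0.905, and 0.847 without 2 libraries) and for Fos and Jun 0.821 (rho 0.714, and 0.469 without 2 libraries), while for Fos and Fosl1 it was -0.326 (rho -0.476, and -0.551 without 2 libraries). These values describe libraries that the genes share, with their depth and scaling.

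Summed, the stellate cell markers ranked the antibody libraries in the same order. Their summed level was 47.1, 37.2, 27.6 and 55.8 CPM in antibody replicates 1 to 4, against 48.8, 28.0, 28.0 and 30.3 CPM in the replicates without antibody. It was thus highest in antibody replicate 4 and lowest in antibody replicate 3, like Fos, and in the other arm highest in replicate 1, like Fos. Of the 7 tested markers 5 had the order of Fos with antibody (Col1a1, Col1a2, Col3a1, Col6a3 and Loxl1). Col1a1 had it without antibody as well. Among the 11009 genes of at least 5 CPM, 4.04% had the order of Fos with antibody. Of the 7 markers only Col1a1 and Col1a2 reached that level, so the other markers are not among these genes. Col6a3 and Loxl1 had only 6 to 22 and 8 to 19 counts per library. With antibody Pdgfrb had the order 4, 2, 1 and 3. Pdgfra, the 1 marker called, was lowest in antibody replicate 4 (2.15 CPM). Col1a1, which encodes a chain of type I collagen, had 17.2, 13.1, 10.7 and 19.3 CPM with antibody and 15.4, 10.1, 10.4 and 10.7 CPM without. Their part in the spread of Fos, Fosb, Egr1 and the other genes was not tested.

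**Figure D4:**
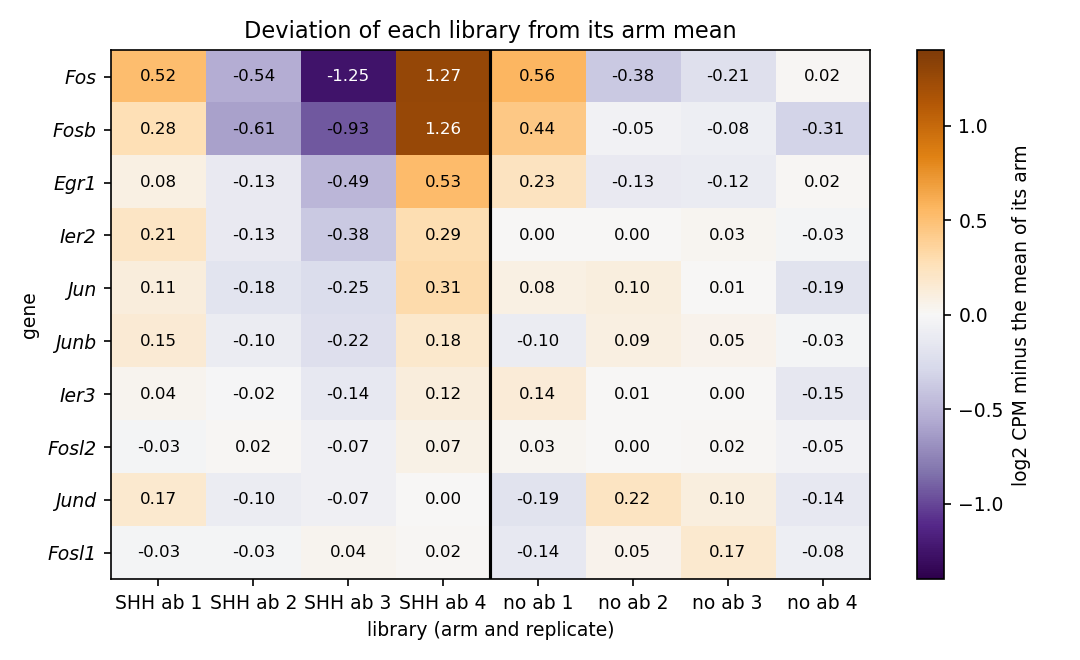
Log2 CPM of each gene minus the mean of its arm, for each library. With antibody, Fos lies 1.27 above its arm mean in replicate 4, and the first 7 genes share the order of the antibody libraries, while Fosl1 with antibody stays within 0.04 of its mean.

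The 14 genes of heat shock, which cells also express under handling stress, had a summed level of 4144 to 4322 CPM with antibody and 3889 to 4383 CPM without. Dnajb4, a chaperone cofactor gene, rose (log2 fold change 0.33 ± 0.06 SE, adjusted p = 0.00151). The other 13 were not called, where 8.4% of all tested genes were. Dnaja1 (0.14, adjusted p = 0.269) and Hspa8 (-0.11, adjusted p = 0.349) had the next lowest p. The median of the list was 0.0062.

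By likeness of the deviations from the arm means, over 9173 genes of at least 10 CPM, those nearest to Egr1 were Car12 (r = 0.974), Gtf2h1 (r = 0.966) and Pdhb (r = 0.966), and 22 genes exceeded 0.9. Those nearest to Ier3 were Atxn2l (0.969), Slc12a4 (0.961) and Fads3 (0.96), with 33 genes above 0.9. Those nearest to Fosl1 were Etv6 (0.99), Mcmbp (0.988) and Zcchc14 (0.978), with 139 genes above 0.9. Fosl1 deviated by only -0.03 to 0.04 with antibody, against -0.14 to 0.17 without. Its r values therefore rest mainly on the libraries without antibody. Each r is over the 8 libraries, and the named genes were picked as the highest of 9173. Without the 2 farthest libraries the r of the named genes were 0.842 to 0.986.

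Other immediate early genes fell more often than they rose. Of 28 tested, 9 fell and 1 rose, with a median log2 fold change of -0.14. Over all tested genes 3.87% were called as lower and 4.53% as higher. Cyr61, which encodes a secreted matrix protein, had 231.9, 185.9, 160.7 and 262.0 CPM with antibody and 449.3, 359.0, 369.4 and 357.3 CPM without (-0.87 ± 0.10 SE, adjusted p = 7.48e-06). It had the same order of antibody libraries as Fos, but its arms did not overlap. The growth regulator gene Myc fell (-0.51 ± 0.05 SE, adjusted p = 1.48e-06), and so did Klf6, which encodes a zinc finger factor (-0.32 ± 0.05 SE, adjusted p = 0.000507). Klf4, another zinc finger factor gene, was the 1 that rose and is named after its values were seen (0.30 ± 0.05 SE, adjusted p = 0.000957).

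Genes that are known targets of AP-1, though each answers to other factors too, were lower more often than higher. Of 15 tested, 7 fell and 1 rose, where 3.87% of all tested genes were called as lower and 4.53% as higher. In 12 the log2 fold change was below 0, as in 51.5% of all tested genes, and the list's median was -0.34. Antibody libraries were below all others in 7 of the 15 and above them in 1, where 6.56% and 7.71% of all tested genes showed this. Hbegf, which encodes an EGF receptor ligand, had 113.2, 114.1, 109.4 and 133.4 CPM with antibody and 177.2, 160.6, 160.7 and 155.5 CPM without (-0.48 ± 0.06 SE, adjusted p = 1.33e-05). The cytokine gene Lif fell by a similar amount (-0.55 ± 0.07 SE, adjusted p = 2.56e-05). Itgb4, the integrin chain of hemidesmosomes, rose to 63.8 ± 3.05 CPM with antibody, against 46.5 ± 2.34 CPM without (SD, n = 4 each; 0.46 ± 0.06 SE, adjusted p = 1.32e-05).

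Among 12 tested bZIP proteins that can pair with AP-1 subunits or compete with them, 2 fell and none rose, with a median of -0.05. The shares of all tested genes were 3.87% and 4.53%. Jdp2 encodes a JUN partner that represses AP-1, and had 20.7, 17.97, 17.5 and 19.1 CPM with antibody and 22.4, 25.2, 27.7 and 30.9 CPM without. All antibody libraries lay below the others (-0.50 ± 0.09 SE, adjusted p = 0.000819). Mafk, a small MAF protein gene, fell less (-0.19 ± 0.05 SE, adjusted p = 0.0283) and was called in 13 of the 19 alternatives. Atf3, a stress-induced partner of JUN, stood at -0.25 ± 0.08 SE on that scale (adjusted p = 0.0602) and passed as lower in 5 of the 19.

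Upstream of these factors, 1 of 7 genes around SRF and 4 of 20 kinase genes were called, where 8.4% of all tested genes were. Of the 7 tested genes of SRF and its cofactors, Fhl2, which encodes a LIM-domain cofactor, fell (-0.15 ± 0.05 SE, adjusted p = 0.046), a call kept in 11 of the 19 alternatives. Mkl2 (0.16, adjusted p = 0.173) and Elk3 (-0.12, adjusted p = 0.174) were not called. Of 20 tested MAP kinases and their partner kinases, Mapk13, a p38 kinase gene, fell (-0.50 ± 0.12 SE, adjusted p = 0.00932), as did Rps6ka5, which encodes the nuclear kinase MSK1 (-0.26 ± 0.08 SE, adjusted p = 0.0482) and the p38 kinase gene Mapk12 (-0.27 ± 0.08 SE, adjusted p = 0.0494). Rps6ka1, which encodes the ERK-activated kinase RSK1, rose (0.23 ± 0.07 SE, adjusted p = 0.0336). Mapk13 was called under all 19 alternatives, Rps6ka1 in 11, Mapk12 in 10 and Rps6ka5 in 7. The medians were -0.0049 for the SRF list and -0.02 for the kinases.

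**Figure D5:**
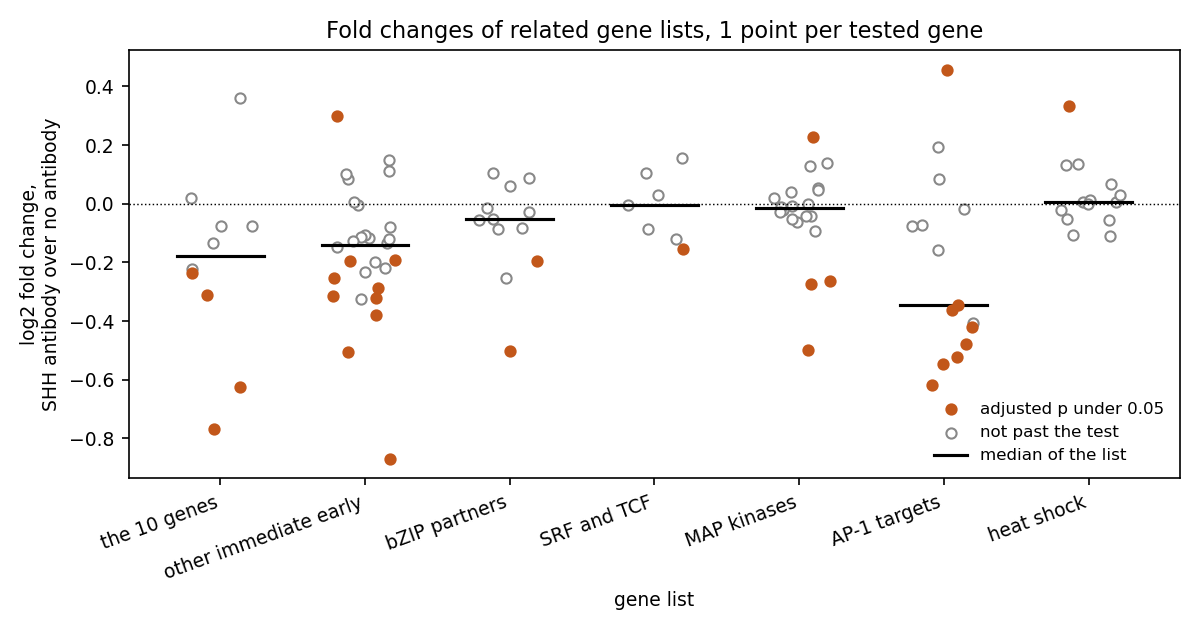
Log2 fold change, SHH antibody over no antibody, of each tested gene in the 10 genes described and in 6 lists around them. Filled points passed adjusted p under 0.05 and black lines are list medians. The medians are -0.18 for the 10 genes, -0.14 for other immediate early genes and -0.34 for AP-1 targets, and 0.0062 for heat shock.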

How the data were processed

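PolyA RNA of the sorted cancer cells was sequenced in 8 libraries, 4 per arm. Base calling with CASAVA 1.8.2 and alignment with TopHat2 2.0.9 to GRCm38 are named in the submitters' processing notes. Not given in the sources used here are the counter, its annotation and its strand setting. The authors' deposited tables hold raw counts per Ensembl gene and RPKM values for the same libraries. Nothing in the labels names separate cultures beyond a biological n of 4, so p-values measure the spread between these samples. Samples were grouped by the labelled treatment. A further genotype element shared by all libraries and 1 marker gene are not reported here.

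The test was edgeR's quasi-likelihood F test (version 4.0.16, R 4.3.3) after filterByExpr and TMM scaling, with arm as the only term and Benjamini-Hochberg adjustment over all 13626 genes tested (threshold 0.05). Fold changes are antibody over no antibody, with standard errors from the F statistic. CPM use TMM-scaled library totals. Correlations use log2 CPM with a prior count of 2, while the deviations given for single libraries use log2 CPM with no prior count. A count of 3 corresponds to 0.191 to 0.30 CPM, which covers counting error only. RefSeq promoter windows were searched for motifs.

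The 10 genes and the lists were chosen with earlier results of these data known, so no p is adjusted over a list alone and no list was tested. From each list up to 3 genes with the smallest p are named, and all called genes where 5 or fewer were called. Alternatives were RLE and upper quartile scaling, other filters, a replicate block, DESeq2 1.42.0, limma 3.58.1 (voom, with and without sample weights, and log2 RPKM), and leaving out libraries.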

Additional observations from a re-analysis of the deposited data

How the results depend on the processing

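The 10 genes held 4 calls, and between 3 and 6 under the 19 alternatives, none of which turned a called gene round. Ier3, Fosl1 and Fosl2 were called as lower in all 19, with log2 fold changes of -0.82 to -0.72, -0.42 to -0.26 and -0.26 to -0.21. Leaving out single libraries gave 4 to 5 calls among the 10 genes and 679 to 1485 calls over all genes, where 1144 were called with all libraries. The lowest counts came when replicate 2 (679) or 3 (695) of the antibody arm was left out. Over all genes, 675 were called on log2(RPKM + 1), 670 on log2(RPKM + 0.1), and 2263 without replicates 1 and 4 of the arm without antibody. The cause of these shifts was not tested.

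The sign of uncalled genes was less stable. Without single libraries log2 fold changes ran from -0.18 to 0.65 for Fos, from -0.65 to 0.17 for Fosb and from -0.0917 to 0.0988 for Jun. Jun was at -0.0298 with voom sample weights and at -0.0389 without replicates 1 and 4 of the arm without antibody. In that last fit Fosb was at 0.0104, Krt8 at -0.0184 and Cd68 at -0.0905. With a replicate block 1005 genes and 5 of the 10 were called, Junb being added (-0.23, adjusted p = 0.0474). Same-numbered libraries deviated together with r of only -0.0285 to 0.00662 over all genes, and no antibody library correlated best with its own number. No label says that same-numbered libraries were paired, and an r over all genes cannot settle this. In the block fit Egr1 had an adjusted p of 2.99e-05 and Fosl2 of 0.00845, against 0.00302 and 0.00351 in the main edgeR fit. With 4 libraries per arm, fold changes of genes as scattered as Fos and Fosb are bounded only by their wide intervals.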

Other observations

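Among the other immediate early genes, Dusp1, Sgk1 and Zfp36 were picked out after their values were seen. They were taken from those that ranked the antibody libraries as Fos did. After subtraction of the arm means their r with Fos was 0.959, 0.902 and 0.858. The others with that order had r from 0.119 (Myc) to 0.977 (Cyr61). Dusp1, which encodes a phosphatase of MAP kinases, had 26.6, 19.1, 14.3 and 36.5 CPM in antibody replicates 1 to 4 and 28.9, 26.8, 25.2 and 24.7 CPM in the replicates without antibody. Its coefficient of variation was 40.2% with antibody and 7.18% without, and its log2 fold change was -0.13 (adjusted p = 0.711). Sgk1, a serum-induced kinase gene, had 27.7, 23.8, 23.6 and 38.2 CPM with antibody and 37.3, 26.0, 28.9 and 29.5 CPM without. Zfp36, which encodes a protein that destabilizes short-lived mRNAs, had 50.2, 44.8, 42.8 and 58.3 CPM with antibody and 56.1, 58.6, 57.8 and 55.9 CPM without. That antibody replicate 4 was the highest and antibody replicate 3 the lowest library of its arm in all 3 genes follows from how they were picked. Of the 28 other immediate early genes tested, 8 had the full order of Fos among the antibody libraries, as did 4.04% of the 11009 genes. The rest of these were Egr2, Cyr61, Btg2, Trib1 and Myc. Their coefficients of variation with antibody were 41.7%, 21.6%, 6.48%, 4.04% and 3.23%. Egr2 and, among the 28, Arc had means of only 1.38 and 1.24 CPM, below the 5 CPM that the 11009 genes reach.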
